A study of Mus musculus with 18 samples.

Results

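DNA methylation was described at the loci of 9 genes of the pluripotency network: Pou5f1, Nanog, Sox2, Klf4, Esrrb, Zfp42, Dppa3, Utf1 and Lin28a. Members were all CpGs with reads within 10 kb of a given start of each gene on build mm9, with the reads of both strands added. These were 545 of the 1479313 CpGs that reached 5 reads in any library, and they lay in 68 of 287753 windows of 1 kb. All 9 loci had reads. The assay was reduced representation bisulfite sequencing on 18 mouse samples: DNA is cut by an enzyme, short fragments rich in CpGs are kept, and cytosines that bisulfite leaves unconverted are read as methylated. The series is titled as a study of X chromosome reactivation during reprogramming to pluripotency. There were 4 female and 2 male samples of embryonic stem cells (ESC), 4 female and 2 male samples of mouse embryonic fibroblasts (MEF), and 2 samples of female induced pluripotent stem cells (iPSC). A further 2 samples were of female cells positive (SSEA1+) and 2 of female cells negative (SSEA1-) for SSEA1, a surface antigen of mouse pluripotent cells. The labels give cell type and sex, and no strain, genotype, transgene, culture medium or day, so nothing more can be said of what the groups share.

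As background, Oct4 (the product of Pou5f1), Sox2 and Nanog are transcription factors that hold mouse pluripotent cells in their state, and Klf4 and Esrrb act with them. Zfp42 (Rex1) and Dppa3 (Stella) are marker genes of the naive state, Utf1 encodes a chromatin-bound factor of undifferentiated cells, and Lin28a encodes an RNA-binding protein that blocks maturation of let-7 microRNAs. Promoters poor in CpGs are often methylated in somatic cells where the gene is silent, whereas CpG islands usually stay unmethylated whether or not the gene is transcribed.

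The 4 upstream sequences below are shown because they set 2 loci of moderate CpG density, whose levels near the start differed between cell types, beside the 2 densest, whose levels did not reach a call there. Each is the 250 bases before the gene's start in RefSeq on GRCm38.p6, 5′ to 3′ on the gene's strand, with every CG in capitals. That build differs from the mm9 of the files, so these coordinates are not those of the windows.
Pou5f1, chr17:35505782-35506031, strand +: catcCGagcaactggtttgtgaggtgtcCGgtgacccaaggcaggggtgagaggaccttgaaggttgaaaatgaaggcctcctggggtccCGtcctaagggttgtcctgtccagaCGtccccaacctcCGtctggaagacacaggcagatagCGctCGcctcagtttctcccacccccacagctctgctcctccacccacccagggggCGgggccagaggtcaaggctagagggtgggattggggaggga
Zfp42, chr8:43307010-43307259, strand -: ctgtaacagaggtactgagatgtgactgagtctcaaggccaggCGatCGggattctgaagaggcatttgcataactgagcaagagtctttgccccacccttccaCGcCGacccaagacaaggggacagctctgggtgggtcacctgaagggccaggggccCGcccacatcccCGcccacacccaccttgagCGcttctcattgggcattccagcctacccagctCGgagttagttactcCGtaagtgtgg
Sox2, chr3:34649745-34649994, strand +: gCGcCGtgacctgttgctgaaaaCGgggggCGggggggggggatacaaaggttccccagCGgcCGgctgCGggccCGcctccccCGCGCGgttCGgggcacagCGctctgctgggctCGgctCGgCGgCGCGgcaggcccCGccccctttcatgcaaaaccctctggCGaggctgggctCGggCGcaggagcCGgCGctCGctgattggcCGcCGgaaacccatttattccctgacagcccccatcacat
Klf4, chr4:55532476-55532725, strand -: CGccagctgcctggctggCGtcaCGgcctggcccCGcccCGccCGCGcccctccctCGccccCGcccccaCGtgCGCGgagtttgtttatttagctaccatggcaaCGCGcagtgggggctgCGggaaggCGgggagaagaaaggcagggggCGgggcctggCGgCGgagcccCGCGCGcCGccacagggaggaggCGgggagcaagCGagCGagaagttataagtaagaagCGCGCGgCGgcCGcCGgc
The Pou5f1 stretch holds 8 CGs and the Zfp42 stretch 9, against 27 in Sox2 and 32 in Klf4. Over 32851 promoters in the same table the median was 6 CGs, and 95.4% of promoters had fewer than Klf4. Of the other members, Utf1 held 14, Lin28a 7, Esrrb 6 and Nanog 3 CGs, the lowest, while Dppa3 had no entry matched. The GC box GGGCGG, searched on both strands, was present in 5 of the 8 members and in 32.7% of all promoters. The octamer core TTTGCAT, also searched on both strands and not overlapping the GC box, was present in Nanog, Sox2 and Zfp42 and in 4.12% of all promoters. Of the CpGs read near the Pou5f1 start, 3 of 3 fell on a CG of the RefSeq sequence. At Sox2 and Klf4 all 11 did once the given starts were shifted by 10 and 7 bases. In the Zfp42 stretch 0 CpGs were read, so the levels given for Zfp42 are not those of the sequence shown.

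The libraries held 11424460 to 62920167 reads over CpGs. They fell into 3 library types that differ in how many of their CpGs had reads from both strands, a feature absent from the labels: 7.25% to 7.46% in type C, 9.03% to 11.7% in type A and 15.3% to 16.1% in type B. Type A held all ESC, female MEF 1 and male MEF 2, type B held the SSEA1+ and SSEA1- libraries, female MEF 2 and male MEF 1, and type C held both iPSC libraries and female MEF 3 and 4. Between female MEF 3 and 4 the mean chi-square per CpG was 1.09, and between the iPSC libraries 1.11, where counting noise alone gives 1 (over CpGs of intermediate level with 10 or more reads in both), whereas other pairs within groups had 1.58 to 4.06. These pairs are therefore close to repeat measurements, and n = 4 for female MEF and n = 2 for iPSC may overstate the replication. Whether replicates are separate cultures or animals is not in the labels. The p-values therefore reflect no more than the variation among these libraries, possibly technical.

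At Pou5f1 the number of reads itself separated the libraries, and this touches every Pou5f1 value below. Over the 4 windows with reads from the start to 9.02 kb, female MEF 1 had 275, female MEF 2 had 229 and male MEF 2 had 262 RPM (reads scaled to the total of the library). SSEA1+ libraries had 227 and 162, and SSEA1- libraries 264 and 214. The other 11 libraries lay between 12.4 (female MEF 3) and 30.8 (female ESC 3) RPM. Against libraries of the same type outside these 7, the ratio was 10.4 to 18.0. The reference libraries were all ESC for type A and male MEF 1 alone for type B. Among windows with a mean of 1 RPM or more in the reference, at most 0.127% reached 5-fold in any of the 7. Methylation moved with the reads: between 2.02 and 3.02 kb the 7 libraries stood at 62.7% to 82.6%, and the MEF libraries outside them, female MEF 3, female MEF 4 and male MEF 1, at 29.3%, 29.0% and 28.8%. The labels name no sequence that could add such reads, and the source was not tested. ESC and iPSC libraries were at 0% to 4.69% in the same window, below all 6 MEF libraries whichever set is used.

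**Figure D1:**
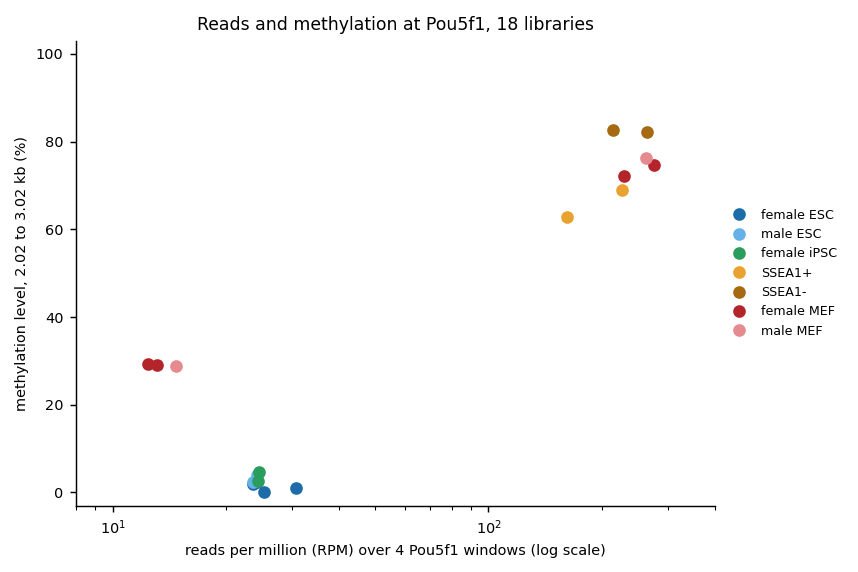
Reads scaled to the library total (RPM) over the 4 Pou5f1 windows between the start and 9.02 kb (x axis, log scale) against the methylation level of the window from 2.02 to 3.02 kb (y axis, percent), 1 point per library, coloured by group. A set of 7 libraries lies at 162 RPM or more with 62.7% methylation or more, 3 MEF libraries lie near 29% at 12.4 to 14.7 RPM, and all ESC and iPSC libraries lie under 5%.

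Coverage set what could be seen at each locus. Of the 545 CpGs, 71 reached 5 reads in all 18 libraries: 17 at Utf1, 16 at Klf4, 14 at Sox2, 8 at Lin28a, 6 at Pou5f1, 4 at Dppa3, 3 each at Nanog and Zfp42, and none at Esrrb. Nanog was the least covered, with 7 CpGs in 3 windows. Its nearest CpG lay 594 bases past the start and was read at 5 or more reads in only the 6 type B libraries, none of them ESC or iPSC, so the Nanog start was not measured in pluripotent cells. Below, a level is the percentage of methylated reads over the CpGs of a window with at least 5 reads in that library. Distances are in kb along the gene from its start, negative upstream. Gene parts such as exons were not assigned, since no annotation on mm9 was in hand.

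**Figure D2:**
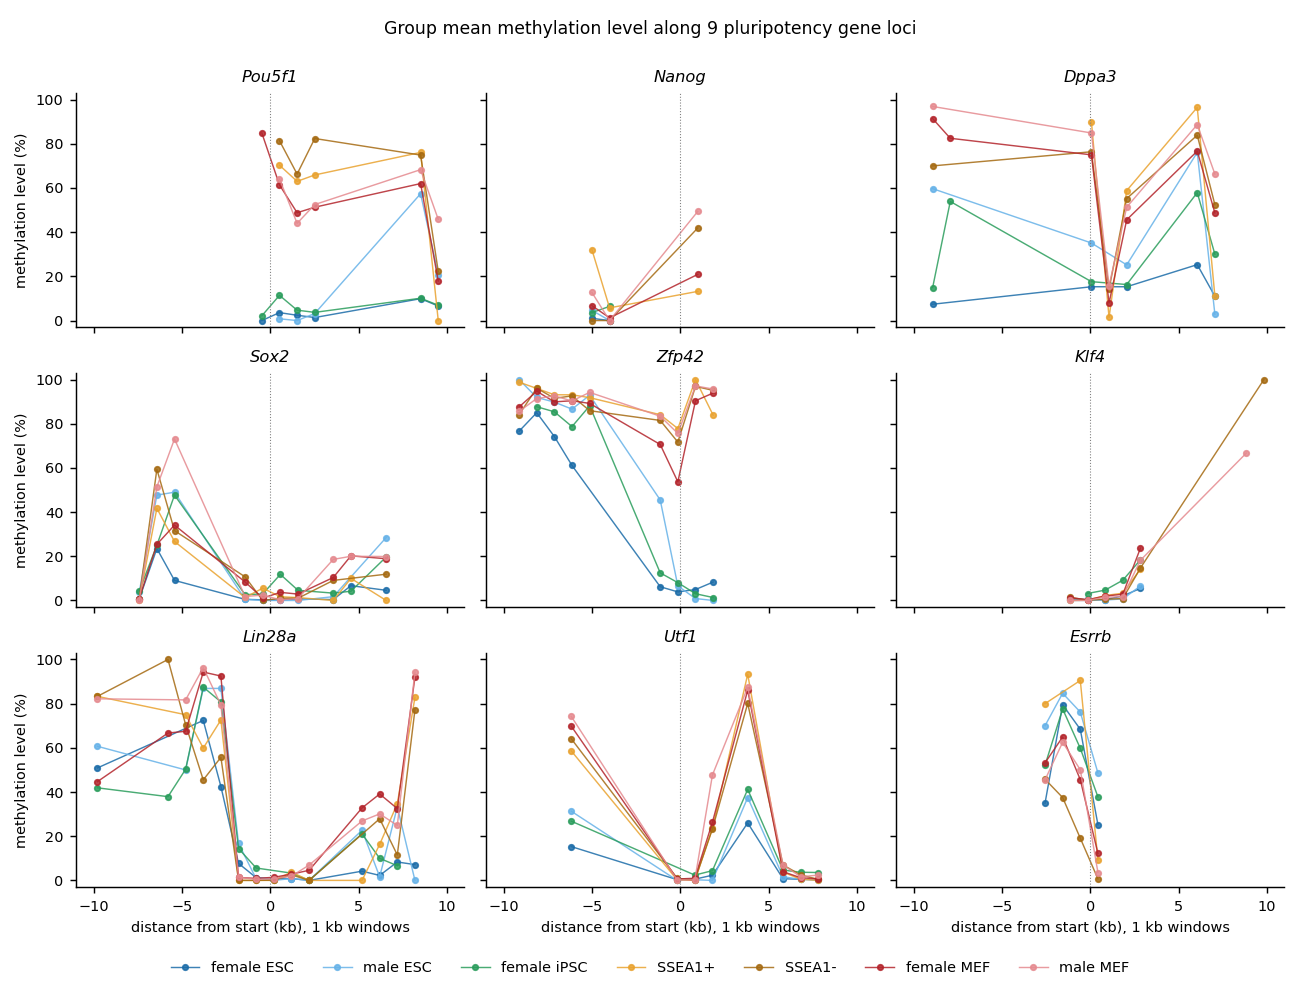
Group mean methylation level (y axis, percent) of 1 kb windows against distance from the start (x axis, kb) for the 9 loci, 1 line per group. In the windows that hold the Dppa3 and Zfp42 starts, and from 0.02 to 3.02 kb at Pou5f1, the ESC and iPSC lines run below the MEF and SSEA1 lines. At Sox2, Klf4, Lin28a and Utf1 the lines meet near 0% at the start, apart from iPSC in the Sox2 window from 0.07 kb (11.8%).

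For tests, each window was compared over the CpGs that reached 5 reads in every library of both groups, at least 2 per window, with a quasi-binomial model fitted to all windows of the genome. A window is called, and written as lower or higher, at a Benjamini-Hochberg adjusted p under 0.05 and a difference of at least 20 percentage points. Female against female and male against male, ESC were compared with MEF to ask where pluripotent cells and fibroblasts differ. In female ESC 10 of 24 windows tested were lower than in female MEF and 0 higher, at Pou5f1, Dppa3, Zfp42, Lin28a and Utf1. The median difference of the 24 windows was -7.14 points. Over all windows 56.9% were lower and 1.47% higher, with a median of -23.3 points, so the 41.7% seen at these loci was not above the background. In male ESC 11 of 37 windows (29.7%) were lower than in male MEF and 0 higher, at the same 5 genes, against 10.6% lower and 4.38% higher over all windows. The median difference was -5.26 points at these loci and -0.47 over all windows. These 2 comparisons share no sample. Of 24 windows tested in both, 7 were called in both, which is 70% of the female and 63.6% of the male calls. The share of all windows called in both was not computed. Most MEF libraries are not of type A, as all ESC are. Within type A the 10 female windows were still lower, by 21.9 to 73.4 points against female MEF 1, and the 11 male windows by 25.2 to 93.2 points against male MEF 2, with no test.

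Around the start of Zfp42, a zinc finger gene transcribed in naive pluripotent cells, ESC and MEF were far apart. The nearest CpG read lay 399 bases upstream of the start, so the start itself was not measured. In the window from -0.64 to 0.36 kb (chr8:44392001-44393000, 5 CpGs), female ESC stood at 1.25%, 2.22%, 8.04% and 4%, and female MEF at 63.5%, 55.6%, 47.6% and 48.2%. The groups did not overlap, and the difference was -49.8 points (SE 4.01, adjusted p = 6.52e-10). Male ESC were at 6.97% and 6.19% and male MEF at 67.2% and 84.0%, a difference of -69.0 points (SE 8.41, adjusted p = 3.87e-05). From 0.36 to 1.36 kb the contrast was wider still in the male pair, with 3.85% and 0% in ESC against 97.0% and 95.1% in MEF over 3 CpGs, or -94.1 points (SE 2.14, adjusted p = 8.91e-05). Female ESC read at most 8.75% there over each library's own CpGs, while female MEF read 84.6% to 96.1%. The far upstream part of the locus stayed methylated in ESC. Between -8.64 and -7.64 kb female ESC averaged 85% ± 1.6 (SD, n = 4), male ESC 91.9% ± 3.6 (SD, n = 2) and female MEF 94.7% ± 2.0 (SD, n = 4). From -6.64 to -5.64 kb female ESC were lower than female MEF by 36.1 points (57.3% against 93.4% over 2 CpGs, SE 4.56, adjusted p = 6.84e-06), yet still above the level at the start.

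Single CpGs of the Zfp42 start window did not all follow the window. The CpG 551 bases upstream was methylated in 0 of 106 reads in female MEF 3 and in 0 of 123 in female MEF 4, while its neighbour 10 bases away stood at 79.2% and 83.7% in the same libraries. A count of 0 of 106 reads allows a level of up to 2.83%. In female MEF 1 and 2 the same CpG was at 100% and 81.8%, over 6 and 11 reads. Counting limits cover counting error only.

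At Pou5f1 the windows from the start to 3.02 kb were close to unmethylated in ESC. Between 2.02 and 3.02 kb (chr17:35645001-35646000, 3 CpGs) female ESC read 2.47%, 0%, 1.11% and 1.85%. Female MEF read 74.7%, 72.1%, 29.3% and 29.0%, the first 2 being the libraries of high read number. The difference was -49.9 points (SE 12.8, adjusted p = 6.39e-05), and without those 2 libraries -27.8 points, still called. Male ESC read 4.07% and 2.3% and male MEF 28.8% and 76.2%, a difference of -49.3 points (SE 23.7, adjusted p = 0.00115), which was -25.6 and called with male MEF 1 alone. In the window from 1.02 to 2.02 kb the female pair differed by -56.1 points (SE 11, adjusted p = 3.84e-05) and the male pair by -54.4 points (SE 16.2, adjusted p = 0.00322). ESC and MEF libraries did not overlap in either window. From 0.02 to 1.02 kb, next to the Pou5f1 start, male ESC read 2.63% and 0% and male MEF 23.1% and 49.4% over 3 shared CpGs (-34.9 points, SE 13.2, adjusted p = 0.0164), or -21.8 points and still called without male MEF 2. The female pair was not tested there, but over each library's own CpGs female ESC read 1.6% to 5.79% and female MEF 39.6% to 82.6%. With limma the male calls from 0.02 kb (adjusted p = 0.0534) and 2.02 kb (0.0532) were lost. The CpG 222 bases upstream reached 5 reads in 5 libraries, with 4.26% and 0% in the iPSC, 92.9% and 76.9% in female MEF 3 and 4, and 0% over 6 reads in female ESC 1.

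At Dppa3, whose product shields methylated DNA in the early embryo, male ESC were lower than MEF at the start, and each sex had lower windows downstream, though not the same ones. In the start window (-0.44 to 0.56 kb, chr6:122576001-122577000, 3 CpGs) female ESC read 18.8%, 16.7%, 15.1% and 10.5%. Male ESC read 20.1% and 50% and male MEF 89.8% and 80%, a difference of -49.8 points (SE 15.7, adjusted p = 0.00823). Without male ESC 1 the male difference was -34.9 points and not called (adjusted p = 0.116, range over the alternatives 3.91e-06 to 0.203), and limma gave adjusted p = 0.0845. Female MEF read 63.0% to 83.7%, but the female pair shared too few CpGs there for the test. Downstream, from 1.56 to 2.56 kb, female ESC were lower than female MEF by 30.4 points (SE 5.91, adjusted p = 7.31e-05), and from 5.56 to 6.56 kb by 46.2 points (SE 6.95, adjusted p = 3.11e-07). The male pair was tested in both of these Dppa3 windows and not called: at 1.56 kb ESC read 20% and 30.3% and MEF 40.2% and 54.5% (adjusted p = 0.105), and at 5.56 kb ESC read 72% and 78.4% and MEF 93.3% and 81.1% (adjusted p = 0.142). Male ESC were lower than male MEF from 6.56 to 7.56 kb, a window not tested in the female pair, with 4.76% and 2.08% in ESC and 74.6% and 57.6% in MEF (-62.7 points, SE 8.64, adjusted p = 5.08e-05). Between these windows Dppa3 had a stretch of low level: from 0.56 to 1.56 kb the 6 type B libraries, which alone covered it, read 0% to 21.1%, female MEF 2 among them at 7.94%.

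Utf1 and Lin28a had nearly unmethylated starts in the libraries that covered them and differed between ESC and MEF only in windows away from them. At Utf1 the start window read at most 1.37% in 14 libraries, and the next, from 0.32 to 1.32 kb, at most 2.46% in all 18. In the window from 3.32 to 4.32 kb (chr7:147133001-147134000, 3 CpGs) female ESC read 23.8%, 29.2%, 29.8% and 21.1%, and female MEF 91.1%, 85.1%, 88.2% and 79.9%. The groups did not overlap, with a difference of -60.1 points (SE 3.21, adjusted p = 1.98e-09). Male ESC were lower than male MEF in that window by 45.5 points (SE 17.9, adjusted p = 0.0254), although the male ESC libraries were 59.2% and 23.9%. Without male ESC 2 the Utf1 difference was -27.8 points and still called, and with limma it was not called (adjusted p = 0.0962). The window from -6.68 to -5.68 kb was lower by 49.5 points in female ESC (SE 5.35, adjusted p = 8.55e-07) and by 42.9 in male ESC (SE 3.81, adjusted p = 2.68e-04; 0.0822 with limma, not called). The window from 1.32 to 2.32 kb was lower by 28.3 points in female ESC (SE 4.26, adjusted p = 1.84e-05) and by 43.7 in male ESC, where the call was lost without either male ESC library (adjusted p = 0.168 and 0.125).

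At Lin28a a single window was lower in ESC of both sexes, from 5.70 to 6.70 kb past the start (chr4:133568001-133569000). Female ESC read 0%, 0%, 2.56% and 0% over 2 shared CpGs and female MEF 34.3%, 34.8%, 28.1% and 26.8%. The difference was -30.4 points (SE 2.16, adjusted p = 4.26e-06). In the male pair it was -22.1 points (SE 3.12, adjusted p = 0.00684). It fell short of 20 points without male MEF 2 (-19.0), and its adjusted p was 0.0846 without male ESC 1. With a minimum of 10 reads it was -16.1 points. The window that holds the start read at most 2.80% in the 14 libraries that covered it.

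Sox2 and Klf4, the members with the most CpGs, showed no called window between ESC and MEF in either sex. The Klf4 start window (-0.66 to 0.34 kb, 62 CpGs) read at most 3.46% in any of the 18 libraries, and female ESC averaged 0.437% ± 0.17 (SD, n = 4) against 0.337% ± 0.40 (SD, n = 4) in female MEF. The Sox2 window from 0.07 to 1.07 kb (49 CpGs) was at a mean of 3.66% ± 3.1 (SD, n = 4) in female MEF, against 0.182% ± 0.21 (SD, n = 4) for female ESC. At levels this low a difference of 20 points downward cannot occur. Small shifts below that size were present at Sox2: from 3.07 to 4.07 kb female ESC read 0% and female MEF 8.54% over 2 CpGs (adjusted p = 8.72e-05, not called).

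**Figure D3:**
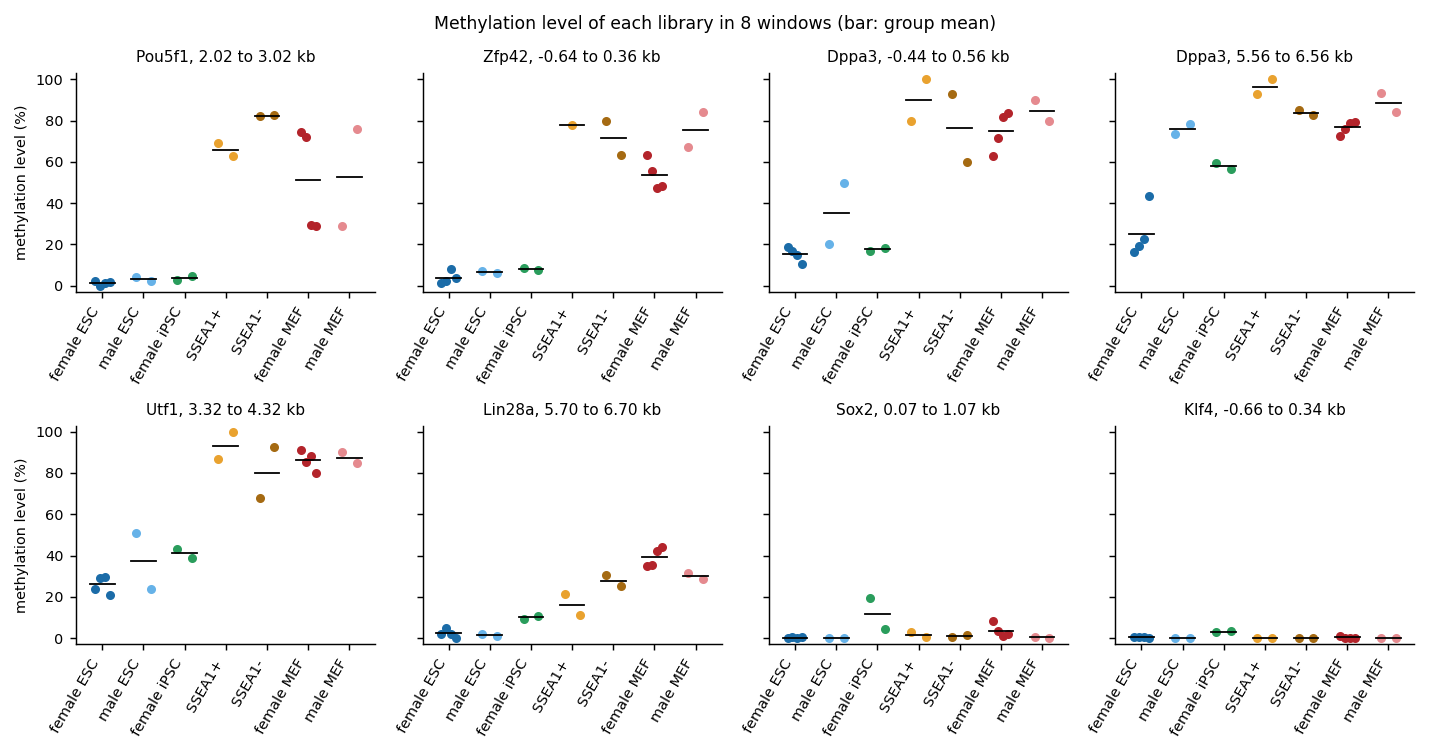
Methylation level of each library (points, percent over the library's own CpGs) by group in 8 windows, with the group mean as a bar. ESC and iPSC lie below MEF and SSEA1 libraries at Pou5f1, Zfp42, the Dppa3 start and Utf1, iPSC lie between female ESC and MEF at Dppa3 5.56 to 6.56 kb, and the Klf4 window is at 3.46% or less in all 18 libraries.

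Nanog and Esrrb had no called window between ESC and MEF. At Nanog only the window from -5.51 to -4.51 kb could be tested between ESC and MEF (2 CpGs), with 1% in female ESC and 6.74% in female MEF and, in males, 4.61% and 12.7%. Neither pair was called. At Esrrb, 1 window was tested in the male pair and none in the female pair. Over each library's own CpGs the Esrrb start window (-0.07 to 0.93 kb, 3 CpGs) had a higher mean in ESC, with 43.6%, 22%, 11.1% and 24.1% in female ESC and 10.8%, 9.09%, 14.4% and 14.6% in female MEF. These female ranges overlap. Male ESC, at 11.5% and 85.7%, were far apart and both above male MEF at 0% and 7.14%, and iPSC, at 39.1% and 36.6%, were above all female MEF. The Esrrb start window was not tested in any of these pairs.

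Several windows with wide ranges between groups were not called in any comparison, and most rested on few CpGs. Between ESC and MEF of the same sex, only the Esrrb window below was tested, in the male pair. For the others, not called there means not tested. At Zfp42, from 1.36 to 2.36 kb (2 CpGs, 14 libraries), ESC and iPSC read 0% to 16.7% and the MEF and SSEA1 libraries 75% to 100%. On the other side of the Zfp42 start, from -1.64 to -0.64 kb (3 CpGs), female ESC read 10.5%, 5.71% and 2.38%, iPSC 10% and 15%, male ESC 51.1% and 40%, and MEF and SSEA1 libraries 53.8% to 96.9%. At Lin28a, from 7.70 to 8.70 kb, 4 ESC libraries with reads were at 21.4%, 0%, 0% and 0%, and the 6 MEF and SSEA1 libraries with reads at 70.8% to 100%, over at most 2 CpGs. At Dppa3 the single CpG between -9.44 and -8.44 kb stood at 0% to 20% across female ESC and at 14.9% and 15% in the iPSC. Male ESC read 81.8% and 37.5% at this Dppa3 CpG, and MEF 90% to 100%. At Sox2 the single CpG between -5.93 and -4.93 kb ranged from a mean of 9.08% in female ESC to 73.1% in male MEF, with male ESC at 40.9% and 57.1%. The Esrrb window from -1.07 to -0.07 kb was methylated in ESC as well, at 61.1% to 76.5% in female and 84.2% and 68.2% in male libraries, while female MEF spread from 0% to 68.5%. Klf4 reached its widest range among windows covered in all 18 libraries between 2.34 and 3.34 kb, from a mean of 5.47% in female ESC to 23.7% in female MEF, where female MEF 1 alone read 46.6% and the others 11.1% to 25%.

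Windows with many CpGs mostly had low levels. Of 14 windows with 10 or more CpGs read, 12 lay at Sox2, Klf4, Lin28a and Utf1, and no library exceeded 19.3% in any of those 12. The other 2 were upstream windows of Zfp42, at 61.1% and 74.2% in female ESC and 90.4% and 89.9% in female MEF. The 54 windows with fewer CpGs had a median group mean of 47.2% in female MEF and 7.14% in female ESC. Over the series 18 of 53 windows tested were called in at least 1 comparison, at 7 of the 9 loci, and 1 of the 18 had 10 or more CpGs. The share of all windows called in any comparison was not computed. Without that share the 18 cannot be read as more or fewer calls than elsewhere. Female ESC against female MEF alone had 56.9% of all windows lower.

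**Figure D4:**
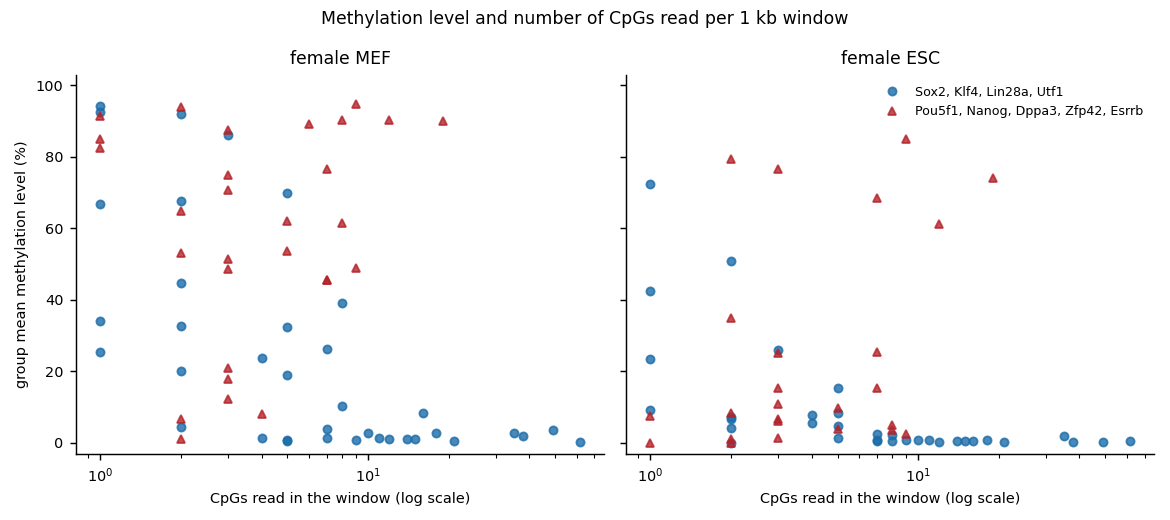
Group mean methylation level (y axis, percent) against the number of CpGs read in the window (x axis, log scale) for female MEF (left) and female ESC (right), 1 point per window. Circles are the windows of Sox2, Klf4, Lin28a and Utf1 and triangles those of the other 5 loci; the circles with 10 or more CpGs lie at 8.36% or less in female MEF, and in female ESC the high points with 10 or more CpGs are both at Zfp42.

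Female and male ESC were compared to ask how far these libraries differ at the 9 loci. The labels give no strain or genotype, so sex cannot be told apart from either here. Of 34 windows tested, 5 (14.7%) were lower in female ESC and 0 higher, at Pou5f1, Dppa3, Sox2, Zfp42 and Esrrb. Over all windows 54.7% were lower and 0.0734% higher. The median difference was -0.629 points at these loci and -23.53 over all windows. All 6 libraries were of type A, so this comparison is within 1 library type. None of the called windows held a start. From 8.02 to 9.02 kb past the Pou5f1 start (chr17:35651001-35652000, 3 CpGs) female ESC read 9.35%, 14.8%, 13.0% and 4.48% and male ESC 52.2% and 61.5%, a difference of -46.4 points (SE 5.18, adjusted p = 3.24e-07). None of these libraries had high Pou5f1 reads. From 5.56 to 6.56 kb past the Dppa3 start (chr6:122582001-122583000, 2 CpGs) female ESC read 13.2%, 26.9%, 20.9% and 43.3% and male ESC 80.7% and 89.7% (-59.1 points, SE 7.82, adjusted p = 4.96e-06). Over each library's own CpGs in that Dppa3 window, male ESC read 73.7% and 78.4%, female MEF 72.4% to 79.4%, and male MEF 93.3% and 84.1%.

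The remaining 3 windows were lower by smaller amounts. At Sox2, 6.07 to 7.07 kb past the start, female ESC were lower by 24.1 points (5.04% against 29.2%, SE 2.21, adjusted p = 4.19e-05), and at Zfp42, from -6.64 kb, by 27.6 points (57.3% against 85%, SE 3.34, adjusted p = 0.00229). At Esrrb, from -3.07 to -2.07 kb, the difference was -35.1 points (34.9% against 70.0%, SE 10.7, adjusted p = 0.0172) over 2 CpGs with as few as 10 reads in a library, and it was not called without male ESC 1 (-25.1 points, adjusted p = 0.367). In the Zfp42 start window every ESC library of either sex read under 10%. In the Dppa3 start window female ESC read 10.5% to 18.8% and male ESC 20.1% and 50%.

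Female and male MEF differed in 1 of 26 windows (3.85%), which was lower in female MEF. Over all windows 0.574% were lower and 0.349% higher. The window was the Zfp42 start window, at 53.7% in female and 75.6% in male MEF (-21.9 points, SE 9.18, adjusted p = 0.0222). It was not called without female MEF 3 (-19.8 points, adjusted p = 0.0982), female MEF 4 (-20.0, 0.106) or male MEF 2 (-13.5, 0.0559), nor with limma (adjusted p = 0.35), and the CpG read as 0% in female MEF 3 and 4 lies in it. Within type A the difference was -20.5 points and within type B -11.6, with 1 library on each side.

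The iPSC were compared with MEF, a usual starting cell of reprogramming, and with ESC, the usual reference for pluripotent cells. Against female MEF, 10 of 28 windows (35.7%) were lower in iPSC and 0 higher, at the same 5 genes as for ESC. Over all windows 22.7% were lower and 3.78% higher, with a median of -10.17 points against -3.98 at these loci. The Dppa3 start window read 16.7% and 18.5% in iPSC and 63.0%, 71.4%, 81.7% and 83.7% in female MEF (-57.4 points, SE 4.89, adjusted p = 1.05e-09). The Zfp42 start window read 8.49% and 7.63% in iPSC, 45.6 points below female MEF (SE 3.74, adjusted p = 3.38e-09), and the next window, from 0.36 kb, 2.38% and 3.72%. At Pou5f1, from 2.02 kb, iPSC read 2.70% and 4.69% (-47.6 points, SE 12.8, adjusted p = 0.00104), and the difference was -25.5 points and called against female MEF 3 and 4 alone, which are of the same library type as the iPSC. Within that type the 10 windows were lower by 14.5 to 65.2 points. At Dppa3 from 1.56 kb iPSC read 16.5% and 16.2%, below all female MEF (39.6% to 48.9%), a difference of -27.1 points (SE 2.13, adjusted p = 8.04e-08). Utf1 windows were lower by 45.4 (from -6.68 kb), 27.0 (from 1.32 kb) and 44.9 points (from 3.32 kb). At Lin28a the window from 5.70 kb was lower by 27.0 points. The Lin28a window from 6.70 kb was lower by 22.5, but by 16.0 and not called without female MEF 2.

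Against female ESC, 1 of 30 windows (3.33%) was higher in iPSC and 0 lower, while 19.2% of all windows were higher and 0.305% lower. The called window was at Dppa3 from 5.56 kb, where iPSC read 53.9% and 53.2% and female ESC 13.2% to 43.3% (27.4 points, SE 6.41, adjusted p = 0.0083), and limma gave adjusted p = 0.0502. The iPSC thus lay between female ESC and the male ESC libraries of 80.7% and 89.7%. Smaller differences mostly had the same sign: iPSC libraries were above all female ESC libraries in 25 of the 30 windows. The share of all windows without such overlap was not computed. The median difference was 4.16 points at these loci and 11.04 over all windows, so a shift of this sign was not particular to them. Even at the Klf4 start, iPSC read 2.84% and 3.46%, whereas female MEF 3 and 4, of the same library type, read 0.211% and 0.216%. Library type could not be separated from group in this comparison, since no ESC library is of type C. In the Sox2 window from 0.07 kb the iPSC libraries were 19.3% and 4.29%.

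SSEA1+ and SSEA1- cells were compared with MEF to ask whether methylation at these loci had changed in either. No window was called: 0 of 22 for SSEA1+ and 0 of 27 for SSEA1- with the quasi-binomial model, and 0 with limma on log2 ratios. In simulated data a loss of 25 points was called in 28% of changed windows for SSEA1+ and 44% for SSEA1-, so such losses could be missed. With the quasi-binomial model 1 and 6 windows had an unadjusted p under 0.05, but the share of all windows at that threshold was not computed. Over all windows 2.48% were lower and 0.616% higher in SSEA1+, and 1.44% were lower and 0.242% higher in SSEA1-. The Zfp42 window from 0.36 to 1.36 kb read 100% and 100% in SSEA1+ and 100% and 93.8% in SSEA1-, and was tested in neither. The Dppa3 start window, tested for SSEA1- only, read 80% and 100% in SSEA1+ and 92.9% and 60% in SSEA1-, next to 63.0% to 83.7% in female MEF. The Utf1 window from 3.32 kb read 86.6% and 100% in SSEA1+ and 67.8% and 92.5% in SSEA1-. Pou5f1 from 2.02 kb read 69.0% and 62.7% in SSEA1+ and 82.2% and 82.6% in SSEA1-, next to 74.7% and 72.1% in the female MEF libraries that also had high read numbers. Against only female MEF 3 and 4, that window was higher in SSEA1+ by 36.7 points and in SSEA1- by 53.2 points, both called. The Lin28a window from 5.70 kb was not called. Over each library's own CpGs it read 21.4% and 11.1% in SSEA1+, 30.7% and 25% in SSEA1-, and 34.9% to 43.9% in female MEF. Over the shared CpGs of the test both groups overlapped female MEF (26.6% to 41.5%), with 28% and 13.3% in SSEA1+ and 42.6% and 15.9% in SSEA1-.

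SSEA1+ and SSEA1- differed from each other in 0 of 41 windows called by the quasi-binomial model and 0 by limma. An unadjusted p under 0.05 in the quasi-binomial model was found for 10, again with no share over all windows computed. Over all windows 0.0116% were lower and 0.0184% higher in SSEA1+. The largest difference was at Dppa3 from 6.56 to 7.56 kb, where SSEA1+ read 10% and 13.3% and SSEA1- 60% and 58.1% over 2 CpGs (-47.4 points, adjusted p = 0.0855). It passed the threshold when SSEA1+ 2, SSEA1- 1 or SSEA1- 2 was left out, but calls over all windows also rose in those fits. Each of them leaves a single library in a group, so they cannot decide whether this window differs. Over the CpGs shared in the male pair, male ESC stood at 4.76% and 2.08% in this window and male MEF at 74.6% and 57.6%. Over each library's own CpGs, female ESC read 14.8%, 16.3%, 12.9% and 0%. The iPSC libraries there read 60% and 0%, and female MEF 1, 2 and 3 read 67.9%, 58.2% and 20%, with as few as 5 reads in a library. These female libraries thus did not separate cleanly. At Nanog, 0.49 to 1.49 kb past the start, SSEA1+ read 24.5% and 2% and SSEA1- 42.3% and 41.5% over 3 CpGs (-28.7 points, adjusted p = 0.368). The upstream Nanog window from -5.51 kb went the other way, with 9.38% and 54.5% in SSEA1+ and 0% and 0% in SSEA1-. Its SSEA1+ libraries were far apart.

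Between SSEA1+ and iPSC, 7 of 26 windows (26.9%) were lower in iPSC and 0 higher, at Pou5f1, Dppa3 and Utf1. Over all windows 15.2% were lower and 3.19% higher, with a median of -5.49 points against -4.12 at these loci. The largest was Pou5f1 from 2.02 kb (3.70% against 65.9%, -62.2 points, SE 3.26, adjusted p = 0.0101), where both SSEA1+ libraries had high read numbers. From 8.02 to 9.02 kb at Pou5f1, iPSC read 8.25% and 11.5% and SSEA1+ 53.2% and 58.4% (-45.9 points, SE 3.06, adjusted p = 0.0101). Utf1 from 3.32 kb was lower by 49.1 points (46.7% against 95.8%, SE 4.74, adjusted p = 0.0149) and Dppa3 from 1.56 kb by 31.1 points (SE 10.4, adjusted p = 0.0266). Without SSEA1+ 1 the calls at Dppa3 from 1.56 kb (adjusted p = 0.0719), Utf1 from -6.68 kb (0.15), Utf1 from 1.32 kb (-13.7 points) and Pou5f1 from 1.02 kb (-14.5 points) were lost. The 2 groups share no library type, so type and group cannot be told apart here.

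**Figure D5:**
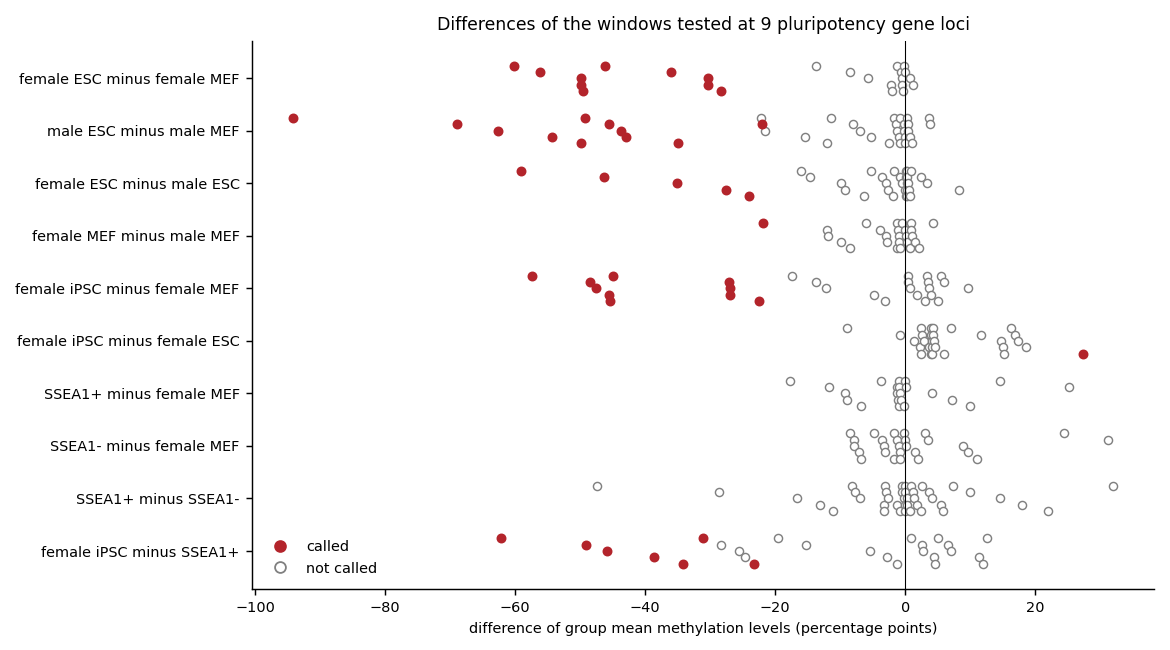
Difference of group mean methylation levels in percentage points (x axis) for every window tested at the 9 loci, in the 10 comparisons (y axis). Filled points are called windows and open points are not; the calls are 10, 11, 5, 1 and 10 lower windows in the first 5 comparisons, 1 higher window for iPSC minus female ESC, none in the 3 comparisons of SSEA1 cells with MEF or each other, and 7 lower windows for iPSC minus SSEA1+.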

How the data were processed

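Reduced representation bisulfite sequencing, adapted to small cell numbers per the labels' protocols, gave 1 table per sample. Each deposited table lists cytosine positions with the methylated and total read count and a score, and only the deposited counts were analysed. Their build is mm9, according to the submitters' processing notes. Which aligner, caller and filters the authors used is not given in the sources used here.

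Both strands of each CpG were summed, CpGs under 5 reads in a library were left out, and 1 kb windows on a fixed grid were formed. Windows at the edge of a locus were tested whole. Per comparison, methylated and unmethylated counts were fitted with a quasi-binomial model of 2 group means in R 4.3.3, with the dispersion moderated by limma 3.58.1 and held at 1 or more. P-values were Benjamini-Hochberg adjusted over all windows of the genome, and the code was tested on simulated data. Tables used Python 3.11.15, numpy 2.4.6 and pandas 2.3.3.

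The 9 genes, windows and tests were chosen with earlier results of these data known. All 9 genes are described, by their start windows, every called window and the widest range between groups. Other genes of the network are not analysed here. RefSeq upstream sequences of GRCm38.p6 matched 8 of the 9 genes. Alternatives changed the read minimum, the CpG minimum, a cap on reads, the model, the block, the samples fitted and the size of the difference. Leaving out the MEF libraries of high Pou5f1 reads was chosen after seeing the data.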

Additional observations from a re-analysis of the deposited data

Results flagged for a closer look

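RPM over the Pou5f1 windows stood far above libraries of the same type in 7 libraries. The values were 227 and 162 in SSEA1+, 264 and 214 in SSEA1-, 275 in female MEF 1, 229 in female MEF 2, and 262 RPM in male MEF 2. Read number is outside the methylation measurement, and its source was not tested.

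In 5 of 40 sets of 4 libraries, 1 library lay far from the other 3, where chance alone gives about 1 in 20 for normally distributed values. These were Dppa3 from 1.56 kb in female MEF 4 (48.9%), Zfp42 from -6.64 kb in female MEF 2 (97.9%), Sox2 from -0.93 kb in female ESC 3 (1.11%), Lin28a from -0.30 kb in female ESC 1 (2.73%) and Utf1 from -0.68 kb in female ESC 3 (1.34%). The last 3 are levels near 0 in which the other libraries read 0%. Any level above 0 stands out in such a set, so the rate of 1 in 20 does not hold for them.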

How the results depend on the processing

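The direction of called windows did not reverse under any alternative run, but counts of calls depended on coverage rules and on n. With a minimum of 10 reads, the calls were 2 for female ESC against MEF, 6 for male ESC against MEF, 2 for female against male ESC, 0 for female against male MEF, 3 for iPSC against MEF, 0 for iPSC against ESC and 2 for iPSC against SSEA1+. With at least 3 CpGs they were 3 for female ESC against MEF, 2 for female against male ESC, 0 for iPSC against ESC and 3 for iPSC against SSEA1+, and with at least 1 CpG 8, 2 and 11 for the last 3. Fewer windows could be tested under the stricter rules. In the fit of all 18 samples the calls were 5, 4, 1, 0, 5, 0, 1 and 4 for female ESC against MEF, male ESC against MEF, female against male ESC, female against male MEF, iPSC against MEF, iPSC against ESC, SSEA1+ against MEF and iPSC against SSEA1+. With limma, male ESC against MEF gave 6 calls, and female against male MEF and iPSC against ESC gave 0. A threshold of 10 points gave 8 for iPSC against ESC. Without the MEF libraries of high Pou5f1 reads, female against male MEF gave 0, SSEA1+ against MEF 1 and SSEA1- against MEF 2.

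Leaving out each library in turn gave 10 to 10 calls for female ESC against MEF, 8 to 13 for male ESC against MEF, 4 to 6 for female against male ESC, 0 to 1 for female against male MEF, 9 to 10 for iPSC against MEF, 1 to 2 for iPSC against ESC, 0 to 1 for SSEA1+ against MEF, 0 to 0 for SSEA1- against MEF, 0 to 1 for SSEA1+ against SSEA1- and 6 to 10 for iPSC against SSEA1+. A lone library was taken to vary like the others. With the replicate block, the calls were 10 for female ESC against MEF and 7 for iPSC against MEF, and 0 for male ESC against MEF, female against male ESC, female against male MEF, iPSC against ESC and iPSC against SSEA1+. In each comparison with 0 calls, the block fit also called 0 windows over the whole genome. The loss of calls there was therefore not particular to these loci. Same-numbered libraries correlated from -0.27 to 0.046 in their deviations, so the numbers do not pair them. Over CpGs shared by all 18 samples the median level per window and sample was 5.88%, against 5.99% for the same windows over each library's own CpGs. Of 224 group means 205 moved by 10 points or less, and the largest shift was 28.4 points. Windows of 2 or 3 CpGs and libraries with 10 to 30 reads limit the precision of single levels.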
